A study of Homo sapiens with 18 samples.

Results

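The genes examined here were 8 regulators of mitochondrial biogenesis: the PGC-1 coactivators PPARGC1A, PPARGC1B and PPRC1, the nuclear receptors ESRRA and PPARA, the transcription factors NRF1 and GABPA, and the mitochondrial DNA factor TFAM. They were taken by Ensembl gene identifier from a table of 63677 genes, and all 8 were among the 18121 genes that passed the filter on low counts. They were chosen by their CPM across the 6 groups, so their levels and differences are given as descriptions, with no p-value. How many of them passed the threshold of the fit over all genes is counted once, beside the share of all genes, and nothing is read from it. WM989 is an established human melanoma line, and poly(A) RNA from it was sequenced in 18 libraries, 3 in each of 6 groups. Cells had received the vehicle DMSO or EPZ5676 at 4 µM, which blocks the histone methyltransferase DOT1L, for 7 days. From each treatment came a bulk population, cells with high NGFR and EGFR ("high"), and cells with low NGFR and EGFR ("low"). NGFR is a neural crest receptor and EGFR a growth factor receptor. All groups were the same line in the same medium, and nothing in the labels says whether the 3 replicates of a group were separate cultures, so the spread between them may be technical.

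PGC-1 coactivators bind no DNA themselves. They are recruited by nuclear receptors such as ERRα (ESRRA) and PPARα (PPARA) and by NRF1 and GABP (GABPA is its DNA-binding subunit), which switch on nuclear genes for respiratory chain subunits, mitochondrial ribosomes and protein import. TFAM, itself a target of NRF1 and GABP, packages mitochondrial DNA and starts its transcription. In melanoma PPARGC1A is known as a target of the melanocyte lineage factor MITF, which binds E-boxes.

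Promoter sequence is shown for PPARGC1A, where an E-box is of interest, and for ESRRA and TFAM, where an NRF1-type motif is. All of these hold a match, which not every member does. Each run is the 250 bases before an annotated start, 5′ to 3′ on the gene's strand, from RefSeq on GRCh38.p14. The counts themselves were made on hg19. Capitals mark matches to the E-boxes CATGTG and CACGTG or to the NRF1-type motif (GCGC, N and TGCGC in 1 run, N being any base), on either strand. For PPARGC1A the table holds 2 starts, chr4:23881102-23881351 (minus strand, first line) and chr4:24472906-24473155 (minus strand, second line). ESRRA lies at chr11:64305274-64305523 and TFAM at chr10:58385160-58385409, both on the plus strand.
PPARGC1A, first start: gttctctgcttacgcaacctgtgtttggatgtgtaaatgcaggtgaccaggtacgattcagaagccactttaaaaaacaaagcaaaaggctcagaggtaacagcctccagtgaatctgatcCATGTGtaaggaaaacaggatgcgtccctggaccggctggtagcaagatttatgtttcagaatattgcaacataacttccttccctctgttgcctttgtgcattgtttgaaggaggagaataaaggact
PPARGC1A, second start: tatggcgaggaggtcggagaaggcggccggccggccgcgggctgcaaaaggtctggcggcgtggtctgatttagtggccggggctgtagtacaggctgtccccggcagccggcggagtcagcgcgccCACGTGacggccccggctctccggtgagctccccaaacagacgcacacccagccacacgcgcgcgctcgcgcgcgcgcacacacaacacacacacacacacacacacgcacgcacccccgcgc
ESRRA: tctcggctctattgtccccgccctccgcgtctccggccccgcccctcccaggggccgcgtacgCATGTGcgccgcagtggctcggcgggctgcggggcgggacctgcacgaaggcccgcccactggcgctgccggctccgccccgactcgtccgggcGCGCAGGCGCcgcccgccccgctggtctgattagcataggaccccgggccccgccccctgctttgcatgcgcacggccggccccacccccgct
TFAM: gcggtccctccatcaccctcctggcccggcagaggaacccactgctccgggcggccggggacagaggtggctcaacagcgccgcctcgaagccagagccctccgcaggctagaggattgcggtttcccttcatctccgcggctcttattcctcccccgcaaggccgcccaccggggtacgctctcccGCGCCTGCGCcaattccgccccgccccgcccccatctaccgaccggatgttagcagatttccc
CATGTG began at position -129 from the first PPARGC1A start and CACGTG at -123 from the second. In ESRRA, CATGTG began at -187 and the NRF1-type motif at -93. In TFAM the NRF1-type motif began at -63, and it also occurred before the second RefSeq start of PPARA, at -20. Over 35116 RefSeq promoters of 300 bases (250 before and 50 after the start), CATGTG was in 11.1%, CACGTG in 7.26% and the NRF1-type motif in 5.78%. The ETS motif CCGGAAG, bound by GABP, was in 10.3% of them and the ERR half-site AAGGTCA in 3.92%. Among the 7 members with a RefSeq promoter, CCGGAAG occurred in GABPA at -66 and in PPARA at -123, and AAGGTCA in no member's window. The windows of PPARGC1B and PPRC1 held none of these motifs. A match in letters is a description of the sequence, and which start these cells used was not measured.

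Between 13383741 and 26311674 reads per library fell on genes. Levels are CPM, the share of the reads on the 18121 genes that passed the filter, after scaling by trimmed mean of M values. They are not per length and so are compared only within a gene. The sort was visible in its own genes: NGFR stood at 572 ± 40.8 CPM in DMSO high against 1.00 ± 0.527 in DMSO low cells (SD, n = 3), and EGFR at 75.9 ± 8.72 against 2.79 ± 0.612. DOT1L mRNA, which an enzyme inhibitor need not change, is no check of the treatment. All 10 melanocyte markers, MITF and PMEL among them, had counts in every group. DMSO bulk replicate 1 stood apart: NGFR was at 220 CPM there and at 12.6 and 9.24 in the other DMSO bulk libraries, and the summed melanocyte markers were at 5091 against 10439 and 10708. Reads on no feature made up 12.8% to 15.17% of 12 libraries and 18.88% to 28.65% of 6, of which 5 were EPZ5676 libraries. Values without these libraries are given below where a result rests on them. Without them only replicate 2 of EPZ5676 bulk and replicate 3 of EPZ5676 high cells are left.

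PPARGC1A (ENSG00000109819), the coactivator PGC-1α, was low in the high cells and higher after EPZ5676 in every population. In DMSO high cells the 3 libraries stood at 3.83, 4.48 and 5.06 CPM, from 63, 93 and 73 reads. In DMSO low cells they stood at 18.7, 15.0 and 15.7 CPM. The groups did not overlap, and every low library was at least at 15.0 CPM while no high library passed 5.06. The difference of high minus low was -1.89 ± 0.16 on the log2 scale (SE), a level 0.270 times that of the low cells. Under EPZ5676 the high libraries stood at 6.78, 7.15 and 6.13 CPM. The low libraries stood at 25.7, 24.6 and 25.2 CPM, again with no overlap. The difference was -1.91 ± 0.15, and the change of that difference with treatment was -0.02 ± 0.23, less than its own error. In bulk cells, where fewer expressing cells and less RNA per cell cannot be told apart, DMSO libraries stood at 8.83, 13.7 and 15.1 CPM, with replicate 1 the lowest. EPZ5676 bulk libraries stood at 24.8, 20.4 and 22.5 CPM, all above the DMSO ones.

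EPZ5676 minus DMSO for PPARGC1A was 0.84 ± 0.14 in bulk cells, 0.59 ± 0.17 in high cells and 0.61 ± 0.14 in low cells on the log2 scale, and treated and control libraries did not overlap in any of the 3. Without DMSO bulk replicate 1 the bulk difference was 0.64 ± 0.11. Without the 6 libraries of high no-feature share the 3 differences were 0.70, 0.56 and 0.60 ± 0.18. Of the EPZ5676 libraries this left only replicate 2 in bulk and only replicate 3 in high cells. The bulk and high differences thus have no treated replication there. The order of the group means ran from DMSO high (4.46 ± 0.616 CPM) through EPZ5676 high (6.69 ± 0.518), DMSO bulk (12.5 ± 3.29), DMSO low (16.5 ± 1.93) and EPZ5676 bulk (22.6 ± 2.22) to EPZ5676 low (25.2 ± 0.585; SD, n = 3). Neighbours in that order overlapped for DMSO bulk with DMSO low and for EPZ5676 bulk with EPZ5676 low, and did not overlap elsewhere. Every treated high library lay below every untreated low library. The annotation places 2 antisense genes over PPARGC1A on the opposite strand, and with no strand setting given, reads of both strands cannot be told apart.

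**Figure D1:**
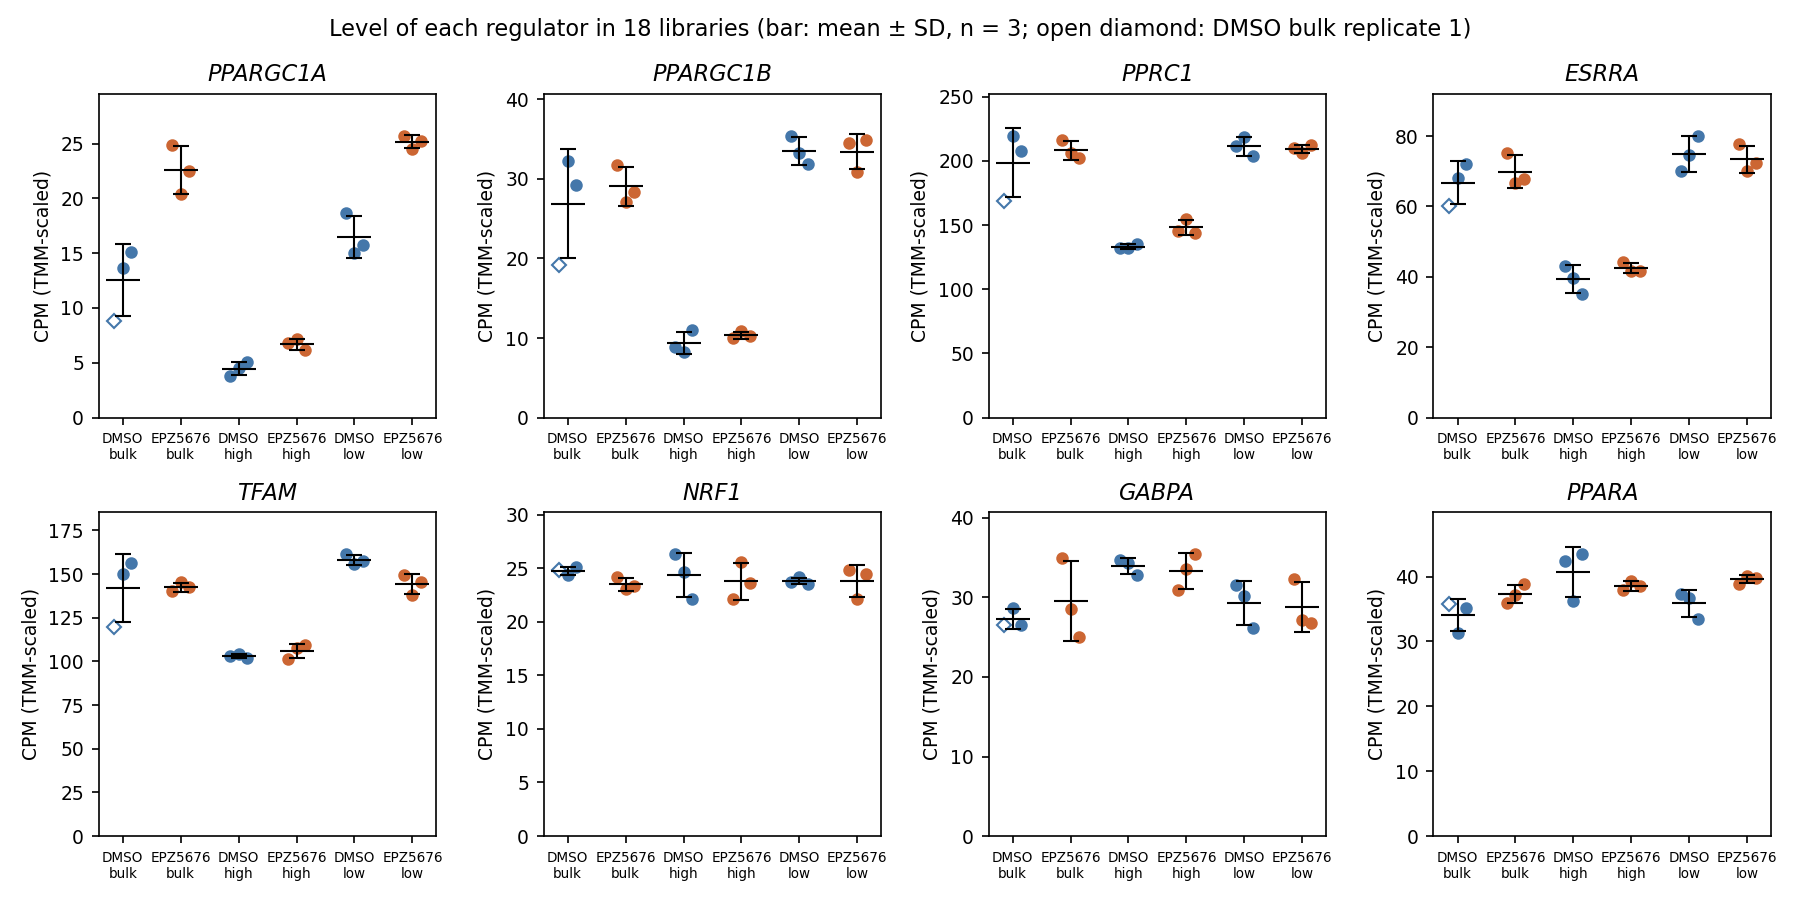
Level of each of the 8 regulators in 18 libraries, in TMM-scaled CPM from 0 upward, by group (blue DMSO, orange EPZ5676), with the mean and SD of 3 libraries as bars and DMSO bulk replicate 1 as an open diamond. PPARGC1A is the gene whose EPZ5676 libraries lie above the DMSO libraries in bulk, high and low cells, and the high groups are the lowest for PPARGC1A, PPARGC1B, PPRC1, ESRRA and TFAM.

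PPARGC1B (ENSG00000155846), the coactivator PGC-1β, differed between high and low cells about as much as PPARGC1A and showed no such difference with treatment. DMSO high libraries stood at 8.81, 8.29 and 10.9 CPM. DMSO low libraries stood at 35.4, 33.3 and 31.9 CPM. The groups did not overlap, and the difference was -1.85 ± 0.15. Under EPZ5676 the high libraries stood at 9.94, 10.8 and 10.2 CPM. The low libraries stood at 34.5, 30.9 and 34.8 CPM, and the difference was -1.69 ± 0.14. High libraries were thus far below low ones under both treatments. In bulk cells DMSO libraries stood at 19.1, 32.3 and 29.3 CPM. EPZ5676 bulk libraries stood at 31.8, 27.1 and 28.3 CPM and overlapped them. EPZ5676 minus DMSO was 0.11 ± 0.14 in bulk cells, 0.15 ± 0.15 in high cells and -0.01 ± 0.13 in low cells, and treated and control libraries overlapped in all 3. Without DMSO bulk replicate 1 the bulk difference was -0.09 ± 0.10.

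PPRC1 (ENSG00000148840) encodes PRC, the family member known as an early response gene for growth signals, and its difference by sort was smaller. DMSO high libraries stood at 132, 132 and 135 CPM. DMSO low libraries stood at 212, 218 and 204 CPM. No high library reached a low one, and the difference was -0.67 ± 0.07. After EPZ5676 the high libraries stood at 146, 155 and 144 CPM. The low libraries stood at 210.0, 206 and 212 CPM, and the difference was -0.50 ± 0.07. The treated high libraries lay above the untreated high ones without overlap, at a difference of 0.15 ± 0.07. In low cells the treatment difference was -0.01 ± 0.07 and the libraries overlapped. In bulk it was 0.07 ± 0.07, or -0.04 ± 0.05 without DMSO bulk replicate 1. DMSO bulk libraries stood at 169, 219.7 and 208 CPM and EPZ5676 bulk libraries at 216, 206 and 202 CPM.

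ESRRA (ENSG00000173153) encodes ERRα, the orphan receptor through which PGC-1 coactivators reach many respiratory genes. In DMSO high cells it stood at 43.2, 39.8 and 35.3 CPM. In DMSO low cells it stood at 70.0, 74.5 and 80.1 CPM. The groups did not overlap, and the difference was -0.92 ± 0.08. Under EPZ5676 high libraries stood at 44.2, 41.7 and 41.8 CPM. Low libraries stood at 77.7, 70.1 and 72.3 CPM, and the difference was -0.78 ± 0.08. Bulk libraries lay near the low cells, at 59.99, 68.1 and 72.0 CPM under DMSO and 75.3, 66.7 and 67.8 CPM under EPZ5676. EPZ5676 minus DMSO was 0.07 ± 0.08 in bulk cells, 0.11 ± 0.08 in high cells and -0.03 ± 0.08 in low cells, with overlap in each. TRMT112, a methyltransferase cofactor gene, overlaps ESRRA on the opposite strand, and its own difference of high minus low was 0.05 ± 0.13 under DMSO and -0.05 ± 0.13 under EPZ5676 (edgeR quasi-likelihood adjusted p = 0.783 and 0.79). Pseudogenes named for ESRRA, TFAM and GABPA are in the table, and reads shared with them may have been assigned either way.

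TFAM (ENSG00000108064), the factor that acts on mitochondrial DNA itself, was lower in high cells by an amount close to that of PPRC1. DMSO high libraries stood at 103, 104 and 102 CPM. DMSO low libraries stood at 161, 156 and 157 CPM. There was no overlap, and the difference was -0.62 ± 0.07. Under EPZ5676 the high libraries stood at 102, 108 and 109 CPM. The low libraries stood at 149.7, 138 and 145 CPM, and the difference was -0.44 ± 0.07. In the low cells every treated library lay below every untreated one, at a difference of -0.13 ± 0.07, which is opposite in sign to that of PPARGC1A. In high cells it was 0.04 ± 0.07 and the libraries overlapped. In bulk it was 0.00 ± 0.07, or -0.11 ± 0.05 without DMSO bulk replicate 1, from libraries at 119.7, 150.1 and 156 CPM under DMSO and 140.1, 145 and 142 CPM under EPZ5676. The 13 protein-coding genes of mitochondrial DNA were listed with 0 counts in every library, so the transcripts that TFAM acts on were not measured here.

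The DNA-binding factors NRF1, GABPA and PPARA differed much less. NRF1 (ENSG00000106459), nuclear respiratory factor 1, stood between 22.1 and 26.3 CPM in all 18 libraries. High minus low was 0.03 ± 0.08 under DMSO and 0.00 ± 0.08 under EPZ5676, with overlap in both. Its EPZ5676 bulk libraries (24.1, 23.0 and 23.3 CPM) lay below the DMSO bulk libraries (24.8, 24.4 and 25.1 CPM), at a difference of only -0.08 ± 0.08. GABPA (ENSG00000154727) was slightly higher in DMSO high cells, at 34.7, 34.3 and 32.8 CPM. DMSO low libraries stood at 31.5, 30.2 and 26.2 CPM, just below them, and the difference was 0.21 ± 0.10. Under EPZ5676 high libraries stood at 31.0, 33.5 and 35.4 CPM and low ones at 32.4, 27.2 and 26.8 CPM, which overlapped, at 0.22 ± 0.10. ATP5PF, an ATP synthase subunit gene that overlaps GABPA on the opposite strand, went the other way, at -0.37 ± 0.10 under DMSO (edgeR adjusted p = 0.00372).

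PPARA (ENSG00000186951), the fatty acid receptor, stood between 31.3 and 43.4 CPM over the 18 libraries. DMSO high libraries stood at 42.4, 36.3 and 43.4 CPM and low ones at 37.4, 36.8 and 33.4 CPM, which overlapped, at a difference of 0.18 ± 0.07. Under EPZ5676 that difference was -0.04 ± 0.07. In low cells the EPZ5676 libraries (38.9, 40.1 and 39.8 CPM) lay above all 3 DMSO libraries, at 0.14 ± 0.07. In bulk cells they stood at 36.0, 37.2 and 38.8 CPM against 35.8, 31.3 and 35.1 CPM, also without overlap, at 0.13 ± 0.08. In high cells the difference was -0.08 ± 0.07 and the libraries overlapped. For NRF1, GABPA and PPARA every neighbouring pair of groups overlapped when the 6 groups were put in order of their means.

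**Figure D2:**
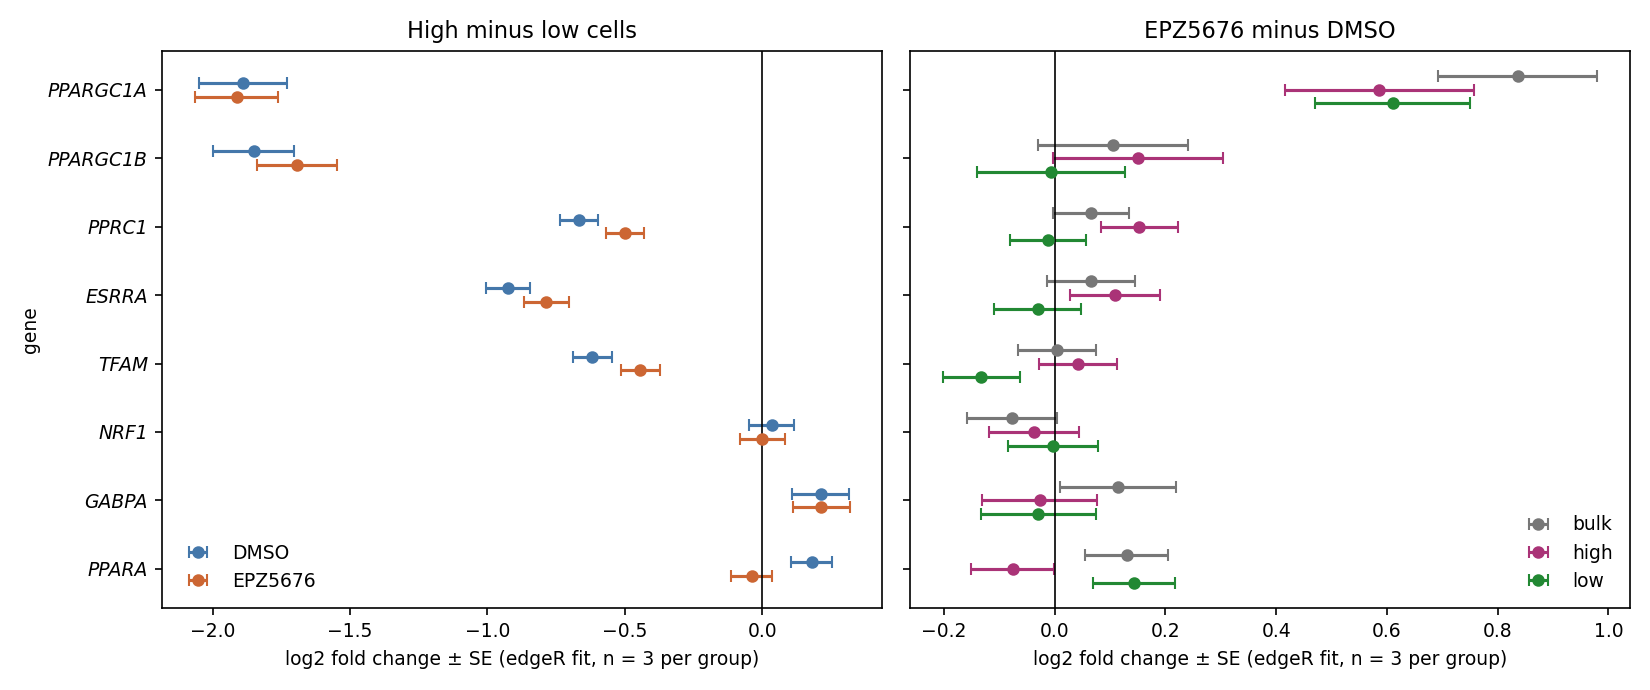
Log2 difference ± SE of each regulator from the edgeR fit, as high minus low cells (left; blue DMSO, orange EPZ5676) and as EPZ5676 minus DMSO (right; grey bulk, purple high, green low), with 3 libraries per group. On the left 5 genes lie below 0 under both treatments, from PPARGC1A at -1.89 to TFAM at -0.62 under DMSO, and on the right PPARGC1A alone lies beyond 0.5 in all 3 populations.

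Counted by the quasi-likelihood test at an adjusted p under 0.05, 6 of the 8 were called between high and low DMSO cells, 5 lower and PPARA higher, where 56.3% of all tested genes were called (60.6% at an unadjusted p under 0.05). Under EPZ5676 5 of 8 were called, all lower, beside 48.9% of all genes (54% unadjusted). PPARGC1A was the 1 member called for EPZ5676 in bulk and in low cells, where the share of all genes called was 0.728% and 1.04% (0.497% and 0.712% higher, 0.232% and 0.326% lower), and 0 were called by edgeR in high cells, with 3% (1.95% higher, 1.04% lower), or for the interaction, with 0.32%. At an unadjusted p under 0.05 those numbers were 2 and 1 of 8, beside 16.3% and 11.1% of all genes. Members without overlap between high and low numbered 6 under DMSO and 5 under EPZ5676, and 60.3% of all genes had none in either. For EPZ5676 these were 3 in bulk cells, 2 in high cells and 3 in low cells, beside 15.9%, 24.8% and 23.1% of all genes. Since the genes were chosen with these levels in view, the counts support nothing. The median over the 8 was -0.64 by sort under DMSO and -0.47 under EPZ5676, with medians of 0.03 and 0.02 over all tested genes. EPZ5676 gave medians of 0.09 in bulk cells, 0.08 in high cells and -0.01 in low cells, with all genes at -0.01, -0.00 and 0.

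MITF and the melanocyte markers moved with the sort. MITF stood at 193 ± 11.1 CPM in DMSO high and 596 ± 39.8 in DMSO low cells, and at 239 ± 20.2 against 575 ± 8.74 under EPZ5676 (SD, n = 3). With treatment the MITF difference was 0.11 ± 0.10 in bulk cells, 0.31 ± 0.10 in high cells and -0.05 ± 0.10 in low cells. In low cells the PPARGC1A difference was 0.61 ± 0.14. MITF activity was not measured, and a link between MITF and PPARGC1A was not tested. All 10 melanocyte markers were called lower in high cells under both treatments (median -2.20 and -1.85), and their summed level was 1265 to 1478 CPM in DMSO high against 11541 to 12007 in DMSO low cells. With EPZ5676 that sum was 1883 to 2059 in high, 14328 to 14494 in low and 12844 to 13145 in bulk cells, and 5091 to 10708 in DMSO bulk. PMEL made up most of the sum in low cells, at 8147 CPM under DMSO and 10440 under EPZ5676 (group means). In low cells 3 of the 10 had an EPZ5676 difference below 0, MLANA among them (567 to 383 CPM), and the median of the 10 was 0.15. Of the 10, 2 were called higher after EPZ5676 in high cells and 0 in bulk or low cells. The summed level of 8 fibroblast markers was 1076 to 1411 CPM in DMSO high and 72.4 to 75.5 in DMSO low cells, and 603 to 743 against 97.7 to 100.3 under EPZ5676. Of the 7 that could be tested 6 were called higher and 1 lower in high cells under each treatment: the collagen gene COL1A1 made up most of the sum in DMSO high cells (930 against 2.08 CPM, group means), and LUM most of it in DMSO low cells (31.7 against 67.8 CPM). Keratinocyte markers summed to 26.2 to 43.4 CPM over all libraries, nearly all of it KRT10, with KRT1 at 0 and KRT5 at or near 0. Endothelial markers summed to 23.7 to 40.5 CPM, with PECAM1 at 0, and of 4 tested VWF and KDR were higher and EGFL7 lower in DMSO high cells, and VWF was higher after EPZ5676 in low cells (1.03, edgeR adjusted p = 0.0448). Leukocyte markers summed to at most 3.06 CPM and muscle, liver and fat markers to at most 1.23. The part of these markers in the levels of the 8 regulators was not tested.

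Beyond the members, genes called were counted in 6 lists of nuclear mitochondrial genes. They were mitochondrial DNA maintenance and transcription, the mitochondrial ribosome, protein import, respiratory chain and ATP synthase subunits, the TCA cycle and fatty acid oxidation. The lists were chosen with earlier results of these data known, so their counts are descriptions, and no list was tested as a set. Of 256 listed genes 247 could be tested. Most were lower in high cells: under DMSO 177 were lower and 14 higher, with a median of -0.43, and under EPZ5676 154 were lower and 13 higher, with a median of -0.33. Over all tested genes 26.7% were called lower and 29.6% higher under DMSO, and 23.1% and 25.8% under EPZ5676. With EPZ5676, edgeR called 1 higher in bulk cells, 7 higher in high cells and 0 in low cells, with 0 lower in each, beside 0.728%, 3% and 1.04% of all genes. DESeq2 and limma-voom also called 0 in the low cells. There edgeR called 7 (5 higher, 2 lower) when only the groups compared were fitted, beside 1028 of all genes. Without DMSO bulk replicate 1 it called 4 in low cells (2 higher, 2 lower), beside 968 of all genes. At an unadjusted p under 0.05 edgeR gave 16 of 247 in bulk cells (13 higher, 3 lower), 45 in high cells (40 higher, 5 lower) and 18 in low cells (10 higher, 8 lower), beside 12.3%, 16.3% and 12% of all genes. Without DMSO bulk replicate 1 edgeR called 1 lower and 0 higher in bulk cells after adjustment. For the interaction it gave 33 (30 higher, 3 lower), beside 11.1%, and 1 passed after adjustment.

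Respiratory chain and ATP synthase subunits summed to 6052 to 7112 CPM in DMSO high and 8475 to 9689 in DMSO low cells. Of 79 tested, 55 were lower and 2 higher in DMSO high cells, and 52 and 1 under EPZ5676. Among complex I genes 22 of 37 were lower and 2 higher, such as NDUFS7 (-0.56 ± 0.08) and NDUFB5 (-0.52 ± 0.07), while the iron-sulfur subunit gene NDUFS8 was higher (0.24 ± 0.06). All 4 complex II genes were lower, with SDHB at 81.0 ± 9.13 against 160.2 ± 12.3 CPM (-0.98 ± 0.09, edgeR adjusted p = 5.71e-08). Complex III had 8 of 9 lower, with CYC1, cytochrome c1, at 278 ± 2.17 against 512 ± 31.9 CPM (-0.88 ± 0.07). Complex IV had 8 of 11 lower, with COX5A at 65.2 ± 3.02 against 124 ± 13.0 CPM (-0.93 ± 0.11). ATP synthase had 13 of 18 lower, among them ATP5MC1 (-0.91 ± 0.08) and ATP5F1C (-0.86 ± 0.07). Under EPZ5676 the counts lower were 21 of 37, 4 of 4, 8 of 9, 7 of 11 and 12 of 18, with SDHB at -0.79 ± 0.09, CYC1 at -0.71 ± 0.07 and COX5A at -0.76 ± 0.10.

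Genes that build the organelle were also mostly lower in high cells. Of 78 mitochondrial ribosome genes 57 were lower and 4 higher under DMSO (median -0.39), and 48 and 4 under EPZ5676 (median -0.27). MRPS7 (-0.83 ± 0.08) and MRPL3 (-0.81 ± 0.07) were among the lower, and MRPS6 went the other way, at 76.5 ± 16.2 against 34.3 ± 3.53 CPM (1.16 ± 0.15). Protein import had 26 of 31 genes lower and 0 higher. TIMM50, a receptor of the inner membrane translocase, stood at 273 ± 7.72 against 799 ± 36.4 CPM in DMSO cells (-1.55 ± 0.10, edgeR adjusted p = 4.71e-09) and at 302 ± 5.88 against 702 ± 13.3 under EPZ5676 (-1.21 ± 0.10), where 18 of 31 were lower. The outer membrane channel gene TOMM40 (-0.73 ± 0.06) and the matrix chaperone gene HSPA9 (-0.67 ± 0.06) were lower under DMSO too.

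The machinery beside TFAM on mitochondrial DNA was lower in 14 of 20 genes under DMSO and higher in 4, and in 11 and 3 under EPZ5676. TWNK, the replicative helicase, stood at 40.7 ± 2.60 against 86.9 ± 5.05 CPM (-1.09 ± 0.10). LRPPRC, which stabilises mitochondrial mRNA, stood at 306 ± 15.6 against 532 ± 7.05 CPM (-0.80 ± 0.07), and the topoisomerase gene TOP1MT was lower by -0.58 ± 0.07. Higher in high cells were the nucleotide supply genes TK2, at 7.60 ± 0.939 against 1.61 ± 0.0535 CPM (2.23 ± 0.25), and RRM2B (0.39 ± 0.07), and the exonuclease gene MGME1 (0.46 ± 0.05). Under EPZ5676 TWNK was at -0.79 ± 0.09, TK2 at 1.49 ± 0.24 and MGME1 at 0.48 ± 0.05.

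Fuel oxidation split by pathway. In the TCA cycle 14 of 16 genes were lower and 0 higher under either treatment, with citrate synthase (CS) at 118 ± 4.70 against 179 ± 4.47 CPM (-0.61 ± 0.05), SUCLG1 at -0.89 ± 0.09 and fumarase (FH) at -0.86 ± 0.07 under DMSO. Fatty acid oxidation was mixed, with 11 of 23 lower and 4 higher under DMSO and 11 and 5 under EPZ5676. CPT1A, which loads fatty acids for import into mitochondria, stood at 37.2 ± 1.98 against 9.72 ± 1.34 CPM in DMSO cells (1.94 ± 0.21, edgeR adjusted p = 1.54e-06) and at 1.44 ± 0.21 under EPZ5676. The acyl-CoA dehydrogenase gene ACADVL (0.76 ± 0.05) and the peroxisomal gene EHHADH (1.09 ± 0.20) were also higher. The matrix genes DECR1 (-0.79 ± 0.09), HADHA (-0.68 ± 0.07) and ETFA (-0.59 ± 0.06) were lower.

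**Figure D3:**
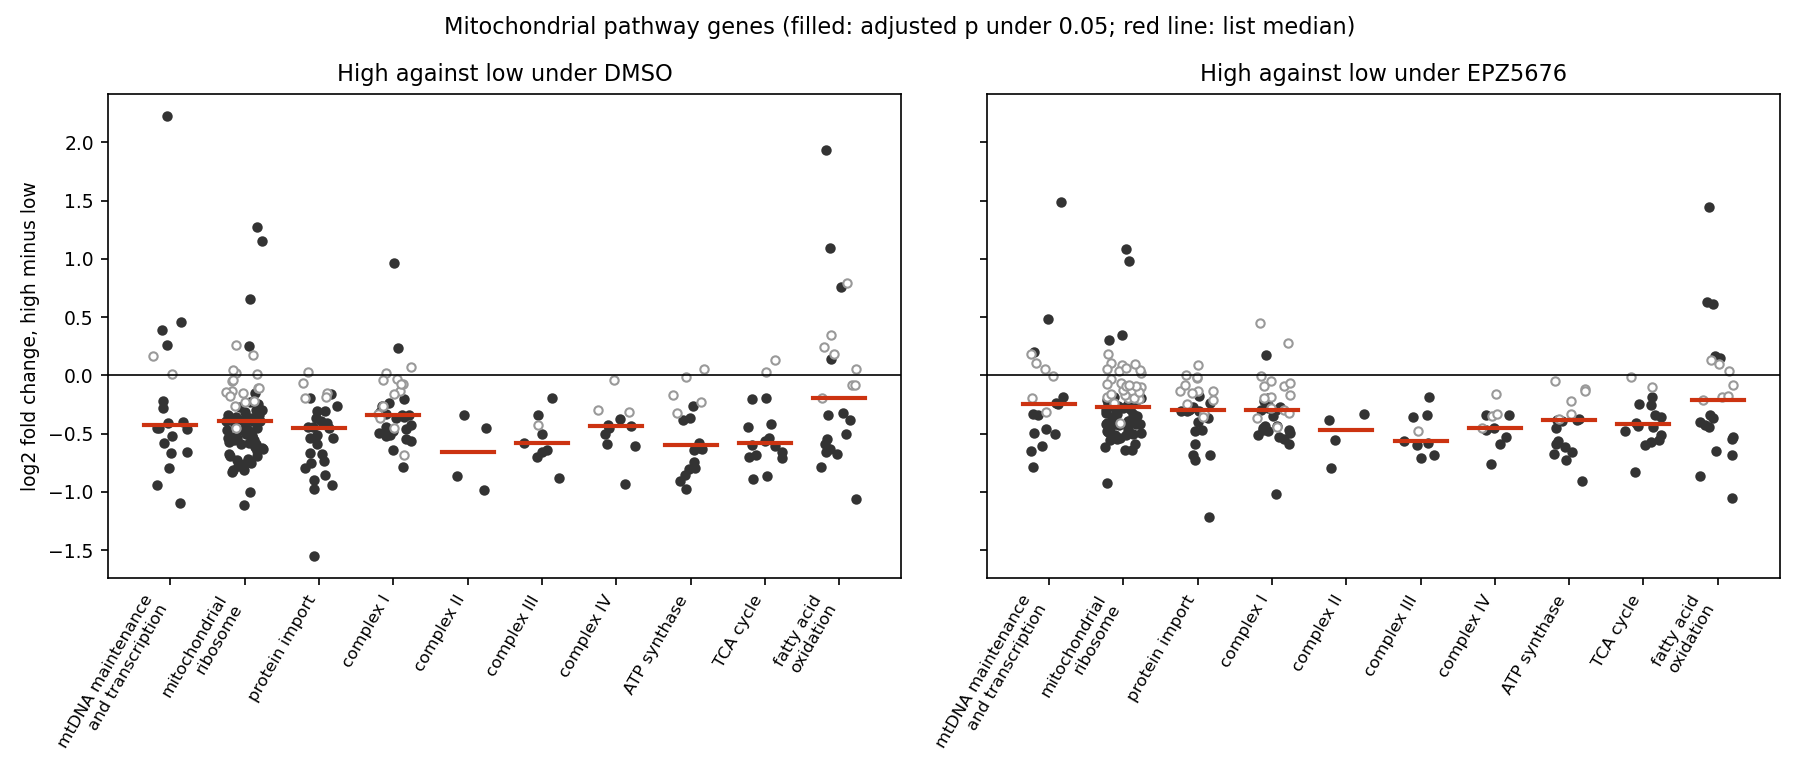
Log2 difference of high minus low cells for nuclear mitochondrial genes outside the 8 regulators, by list, under DMSO (left) and EPZ5676 (right), with genes at an adjusted p under 0.05 filled and list medians as red lines. Every list median lies below 0, and complex II is the lowest under DMSO at -0.66. Several lists hold genes well above 0, under DMSO up to 2.23 in mitochondrial DNA maintenance and 1.94 in fatty acid oxidation.

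Receptors and cofactors that act with the PGC-1 family did not share one direction. Of 12 tested partners 4 were higher and 2 lower in DMSO high cells, where 29.6% of all tested genes were higher and 26.7% lower. RXRG, a retinoid X receptor, stood at 12.4 ± 1.00 against 49.96 ± 0.774 CPM (-2.01 ± 0.14) and was lower under EPZ5676 too (-1.79 ± 0.13). The thyroid hormone receptor gene THRB stood at 11.8 ± 2.10 against 1.62 ± 0.395 CPM (2.86 ± 0.40). GABPB2, a partner subunit of GABPA, stood at 11.8 ± 0.874 against 5.39 ± 0.873 CPM (1.13 ± 0.13). Among 25 genes that act upstream of PPARGC1A, 12 were higher and 7 lower in DMSO high cells, and 11 and 5 under EPZ5676. The shares of all tested genes under EPZ5676 were 25.8% higher and 23.1% lower. CREB1 (0.45 ± 0.07) and ATF2 (0.46 ± 0.07), factors that can activate PPARGC1A, were higher in DMSO high cells. Their activity was not measured, and a link to the PPARGC1A level was not tested. PRMT1, a methyltransferase of PGC-1α, was lower (-0.82 ± 0.07), as was PRKAG2, an AMP kinase subunit gene (-1.23 ± 0.13).

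Each list of other genes tied to these regulators held lower and higher genes under DMSO, beside 26.7% of all tested genes lower and 29.6% higher. Only 4 of 10 PPARα target genes could be tested, and 2 were higher and 1 lower under DMSO: ANGPTL4 stood at 9.72 ± 3.09 against 0.234 ± 0.148 CPM, and PLIN2, a lipid droplet gene, was lower (-0.46 ± 0.08). Of 10 further PGC-1 targets 5 were lower and 1 higher under DMSO. The ADP/ATP carriers SLC25A4 (-0.98 ± 0.09) and SLC25A5 (-0.86 ± 0.06) were lower. UCP3 was higher, at 5.09 ± 0.982 against 2.33 ± 0.845 CPM (1.13 ± 0.24). Under EPZ5676 7 of these 10 were lower and 0 higher (median -0.49), beside 23.1% and 25.8% of all tested genes. Of 9 antioxidant genes 4 were lower and 1 higher, with catalase (CAT) at -0.72 ± 0.08. Among 16 genes of mitochondrial shape and turnover 5 were lower and 4 higher, shares near those of all genes (26.7% lower, 29.6% higher). OPA1, which fuses inner membranes, at 133 ± 3.37 against 309.7 ± 10.97 CPM (-1.22 ± 0.10), and MFN2 (-0.64 ± 0.06) were among the lower. BNIP3L, at 198 ± 7.06 against 98.7 ± 4.78 CPM (1.00 ± 0.09), PINK1 (0.81 ± 0.12) and BNIP3 (0.54 ± 0.09) were among the higher. Under EPZ5676 OPA1 was at -0.89 ± 0.10 and BNIP3L at 0.79 ± 0.09.

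The EPZ5676 differences of the mitochondrial genes lay on both sides of 0 in each population. In bulk cells the 247 genes ran from -0.71 to 0.57 with a median of 0.03, and CPT2 was the 1 gene called (22.5 ± 2.84 to 29.7 ± 1.04 CPM, 0.40 ± 0.09, edgeR adjusted p = 0.0468). That call was lost without DMSO bulk replicate 1 and kept under 8 of 30 other settings. The bulk median was -0.009 without DMSO bulk replicate 1. In low cells they ran from -0.35 to 0.65 with a median of -0.03, and edgeR called 0. In high cells they ran from -0.83 to 0.62 with a median of 0.07, and 7 were called higher: TOMM40, GRPEL1 and CHCHD4 of protein import, FH and DLAT of the TCA cycle and its entry, SDHC of complex II and the ribosomal gene MRPL16, by 0.24 to 0.46. TOMM40 stood at 149 ± 2.97 against 121 ± 3.24 CPM (0.30 ± 0.06, edgeR adjusted p = 0.00702). Outside these lists CYCS, cytochrome c (0.27 ± 0.07, edgeR adjusted p = 0.0367), and PRKAG2, at 13.9 ± 1.13 against 8.41 ± 1.24 CPM (0.72 ± 0.14, edgeR adjusted p = 0.00523), were called higher in high cells. In those cells 7 genes became 32 without DMSO bulk replicate 1, which enters the shared spread. Calls over all tested genes in high cells went from 543 to 2018 in the same fit. Without the 6 libraries of high no-feature share only replicate 3 of EPZ5676 high cells was left. A loss of calls in that fit cannot be told apart from lost replication.

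**Figure D4:**
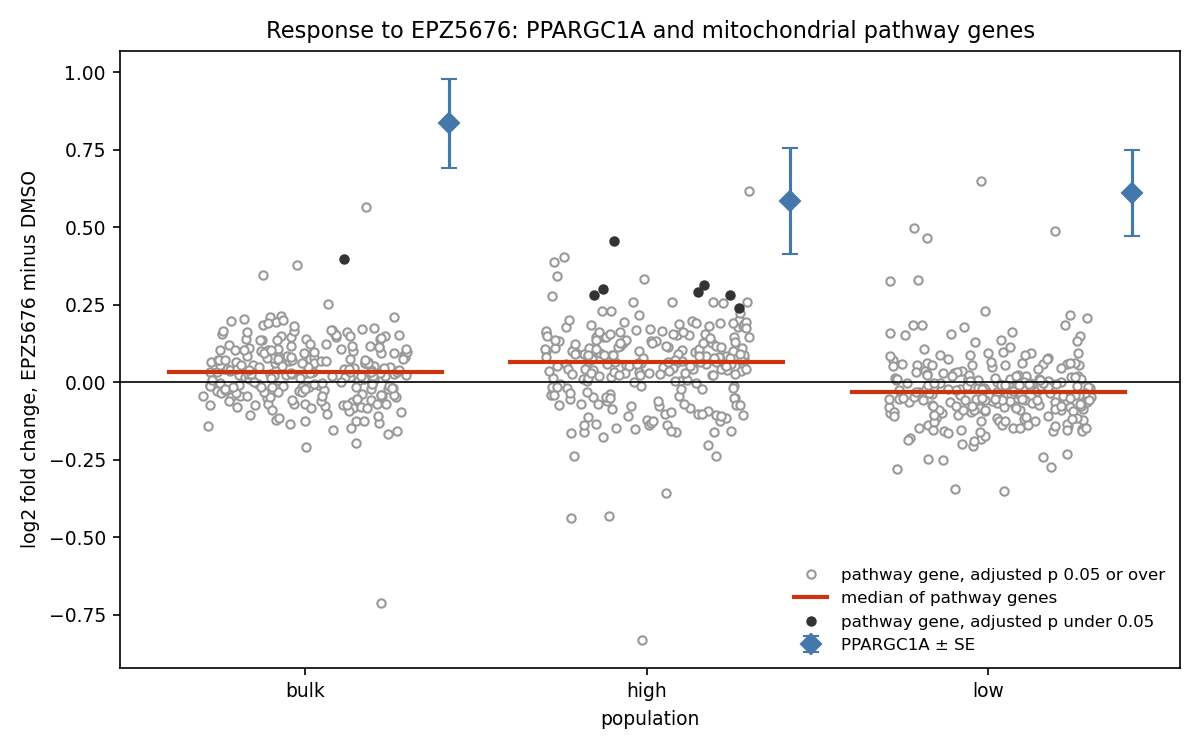
Log2 difference of EPZ5676 minus DMSO in bulk, high and low cells for 247 nuclear mitochondrial genes (circles, filled where adjusted p is under 0.05; red line, median) and for PPARGC1A (blue diamond ± SE). The medians lie between -0.03 and 0.07, and single genes that did not pass the threshold reach 0.62 in high and 0.65 in low cells, as far as PPARGC1A does.

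Genes whose profile over the 18 libraries was most like that of PPARGC1A were ranked among 10420 genes by the root mean square difference of log2 CPM after each gene's mean was removed. The closest 5 were PLEKHB1 and FYB1 (0.21 each) and TRMT9B, APOE and KCNH3 (0.22 each). PLEKHB1 ran from 4.49 ± 0.510 CPM in DMSO high to 33.7 ± 1.47 in EPZ5676 low cells, and APOE, an apolipoprotein gene, from 89.5 ± 14.8 to 373 ± 13.9. All 5 had their lowest mean in DMSO high and their highest in EPZ5676 low cells, as PPARGC1A did. RXRG ranked 12, at 0.25. Among the members PPARGC1B was nearest at 0.32, then ESRRA at 0.58, PPRC1 at 0.66 and TFAM at 0.71, and NRF1 (0.93), PPARA (0.95) and GABPA (1.01) were farthest. These are descriptions over libraries that share sort and treatment.

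**Figure D5:**
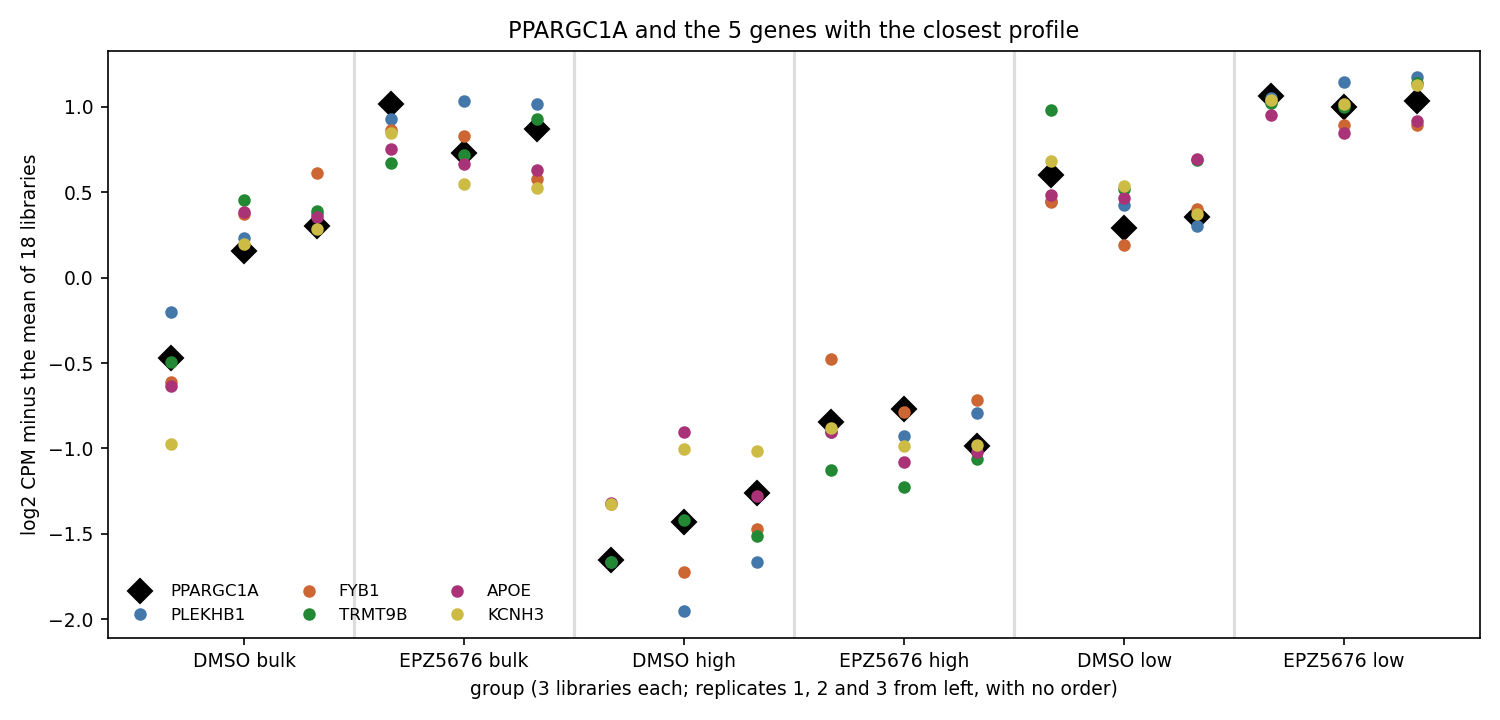
Log2 CPM minus each gene's mean over 18 libraries for PPARGC1A (black diamonds) and the 5 genes with the closest profile (coloured circles), with the 3 libraries of each group side by side. All 6 genes have their lowest group means in the high groups and lie between -0.98 and -0.20 in DMSO bulk replicate 1, apart from the other DMSO bulk libraries.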

How the data were processed

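Raw counts for 18 libraries and each Ensembl gene were deposited. The authors made them on hg19 with STAR and HTSeq, as the submitters' processing notes list. Versions, the annotation and the strand setting are not given in the sources used here. Libraries came from the NEBNext Ultra RNA kit, sequenced paired-end, per the labels' protocols. The 5 HTSeq summary lines per library (no-feature share 12.8% to 28.65%) were left out. Genes were named from a current table (52181) or GENCODE 29 (345), and 11151 were unnamed.

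Counts were filtered by group with filterByExpr (18121 genes tested) and then scaled by trimmed mean of M values over the kept genes. They were fitted with 6 group means in edgeR 4.0.16 (robust quasi-likelihood, R 4.3.3), with Benjamini-Hochberg adjustment over all tested genes and a threshold of 0.05. SEs come from the fit. The code was tested on simulated counts. The 3 libraries per group limit precision. Alternatives were other scalings, filters and tools (DESeq2 1.42.0, limma-voom 3.58.1), covariates, subsets and each library left out.

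Members and lists were chosen with earlier results of these data known. Named pathway genes are, per list and direction, up to 3 called genes of lowest p with a group mean of at least 5 CPM. TFAM's targets on mitochondrial DNA, ATP5PF and TRMT112 were named beside the members they touch.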

Additional observations from a re-analysis of the deposited data

Results flagged for a closer look

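TOMM40, the channel of the outer mitochondrial membrane through which proteins enter, was marked because its response to EPZ5676 differed between high and low cells by the interaction term of the edgeR fit. The difference of the responses was 0.44 ± 0.08 on the log2 scale (adjusted p = 0.0238). In high cells TOMM40 stood at 149 ± 2.97 CPM with EPZ5676 and 121 ± 3.24 with DMSO (SD, n = 3), a difference of 0.30 ± 0.06. In low cells it stood at 183 ± 1.23 and 202 ± 14.7 CPM, a difference of -0.14 ± 0.06 that was not called (adjusted p = 0.351). TOMM40 was the 1 of 247 mitochondrial genes called for the interaction, beside 0.32% of all genes. The call held under 20 of 30 other settings, with an adjusted p from 5.97e-05 to 0.997 and a difference from 0.39 to 0.49. It was lost without the 6 libraries of high no-feature share and without 9 single libraries of the sorted groups: DMSO high replicates 1 and 3, DMSO low replicates 2 and 3, EPZ5676 high replicates 1 and 2, and each EPZ5676 low replicate.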

How the results depend on the processing

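The sign of the PPARGC1A difference was the same in all 5 two-group comparisons under 30 of 30 other settings, as were those of PPARGC1B, PPRC1, ESRRA and TFAM between high and low cells. PPARGC1A ranged from 0.64 to 0.99 (bulk, 0.64 without DMSO bulk replicate 1), 0.49 to 0.68 (high) and 0.55 to 0.71 (low) for EPZ5676 and from -1.998 to -1.791 and -2.03 to -1.85 by sort.

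Leaving out 1 library at a time gave 39 to 550 genes called for EPZ5676 in bulk, 200 to 2018 in high and 60 to 968 in low cells, 9474 to 10798 and 8033 to 9496 by sort under DMSO and EPZ5676, and 14 to 1072 for the interaction. Of the 247 mitochondrial genes it gave 0 to 3, 1 to 32, 0 to 4, 172 to 204, 150 to 179 and 0 to 15. The highest values 550, 2018, 968 and 1072 came without DMSO bulk replicate 1.

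In the order bulk, high, low and interaction, all genes called were 440, 948, 373 and 304 with no filter and 2, 1413, 1028 and 863 when only the groups compared were fitted. Without the 6 libraries of high no-feature share they were 0, 5, 7 and 0, and by sort under EPZ5676 4176. DESeq2 called 290 in bulk, 317 in low cells and 177 for the interaction, and a fit without robust estimation 35 for the interaction. The no-feature share as a covariate gave 50 in bulk.

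Of the mitochondrial genes, no filter gave 2 in bulk, 16 in high cells and 7 for the interaction. Fitting only the groups compared gave 0, 13, 7 and 11. Leaving out the 6 libraries gave 0 in bulk, 0 in high cells, 90 by sort under EPZ5676 and 0 for the interaction. Bulk gave 0 with library size alone, without robust estimation and with the no-feature covariate. DESeq2 gave 4 for the interaction and limma-voom 4 in high cells. The cause of these moves was not tested.

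Replicate numbers are shared between groups in the labels. Same-number libraries had correlations of -0.34 to 0.30. In no comparison did every pair pass 0.1, and by sort under EPZ5676 2 pairs did. With 3 libraries per group these correlations cannot settle whether same-number libraries came from the same culture. The main fit used no pairing. In at most 2 of 3 libraries of a group was the correlation best with its own number. With the replicate block 129, 525, 173, 10117, 8792 and 49 genes were called, against 132, 543, 188, 10199, 8858 and 58 without it. The replicate block with the no-feature share gave 26 genes in bulk and 0 mitochondrial ones.

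Of 66 named genes by sort under DMSO 65 kept their call under all 30 settings (TXNRD2 lost it without the 6 libraries), and of 64 under EPZ5676 54 did. Of 9 for EPZ5676 in high cells 0 did. TOMM40 and PRKAG2 lost theirs only without the 6 libraries, where treated high cells kept only replicate 3. The other 7 also lost theirs when some single library was left out. With 63 to 93 reads in DMSO high cells, PPARGC1A there is limited by depth.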
